A study of Mus musculus with 6 samples.

Results

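The genes that make cholesterol and fatty acids were followed in mouse ATDC5 cells, a chondrogenic cell line, stimulated by IL-1β, in the presence or absence of NP-G2-044, an inhibitor of Fascin1 (FSCN1). The group holds 37 genes, chosen by symbol, of the 16880 genes in the deposited table. It comprises 17 enzymes of sterol synthesis, 11 enzymes of fatty acid synthesis, elongation and desaturation, 6 genes that sense or move sterols, and 3 targets of the liver X receptors (LXR).

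Cholesterol and fatty acid synthesis share a control system. SREBP2 (Srebf2) is known mainly for switching on the sterol enzymes and SREBP1 (Srebf1) for switching on the fatty acid enzymes. Both are held in the endoplasmic reticulum by SCAP and the INSIG proteins while sterols are plentiful, and are cut loose to enter the nucleus when sterols run low. LXRs respond to oxidized sterols, raise genes of cholesterol export and, in many tissues, raise Srebf1 and its targets.

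All 6 libraries came from ATDC5 cells kept with 10 ng/mL IL-1β, an inflammatory cytokine, and the methods give a treatment of 24 h. IL-1β was the only agent in the 3 IL libraries, and 10 μM NP-G2-044 was added in the 3 ILN libraries. Sample titles give NP-G2-044, as the paper does, whereas the treatment label gives NP-G2-047, and the paper speaks of chondrocytes where the labels name the line. A DMSO group was not analysed here, so each value sets the inhibitor against IL-1β alone and not against resting cells. The methods call the replicates biological, and all come from 1 cell line.

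Totals were 16615824 to 16878164 reads in the IL libraries and 17529844 to 17735860 in the ILN libraries. Fscn1, whose protein is the inhibitor's target, lay between 605.45 and 623.28 TPM in the IL libraries and between 249.95 and 254.88 TPM in the ILN libraries. TPM, a level in transcripts scaled by gene length and library size, is used throughout. The defining cartilage genes were low or absent, with Col2a1 at 0.24 TPM or less in every library and Matn1 at 0. In edgeR's quasi-likelihood test on read counts, 80% of the 11983 tested genes had an adjusted p below 0.05. The study's own cutoffs also ask for a log2 fold change beyond 1 in either direction, and 16.6% met them. Called genes were therefore the rule in this comparison. RNA was taken from whole cultures, in which fewer cells of a type and less RNA per cell cannot be told apart.

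The sterol enzymes went both ways with NP-G2-044, much as all tested genes did, and most of the fatty acid enzymes fell. Of the 35 members with enough reads for the test, 11 rose and 18 fell at an adjusted p below 0.05, against 40.2% higher and 39.8% lower among all genes tested, and 6 did not pass. Past both cutoffs, Msmo1 rose and Scd2, Elovl6 and Mylip fell, against 6.48% higher and 10.1% lower among all genes. Their share of 82.9% at the adjusted p alone is near the 80% of all genes, so being called does not set the members apart. The groups did not overlap in TPM for 30 of the 35, against 79.4% of all tested genes. The 2 members below the filter on low counts, Abca1 and Abcg1, are described by their reads further on.

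**Figure D1:**
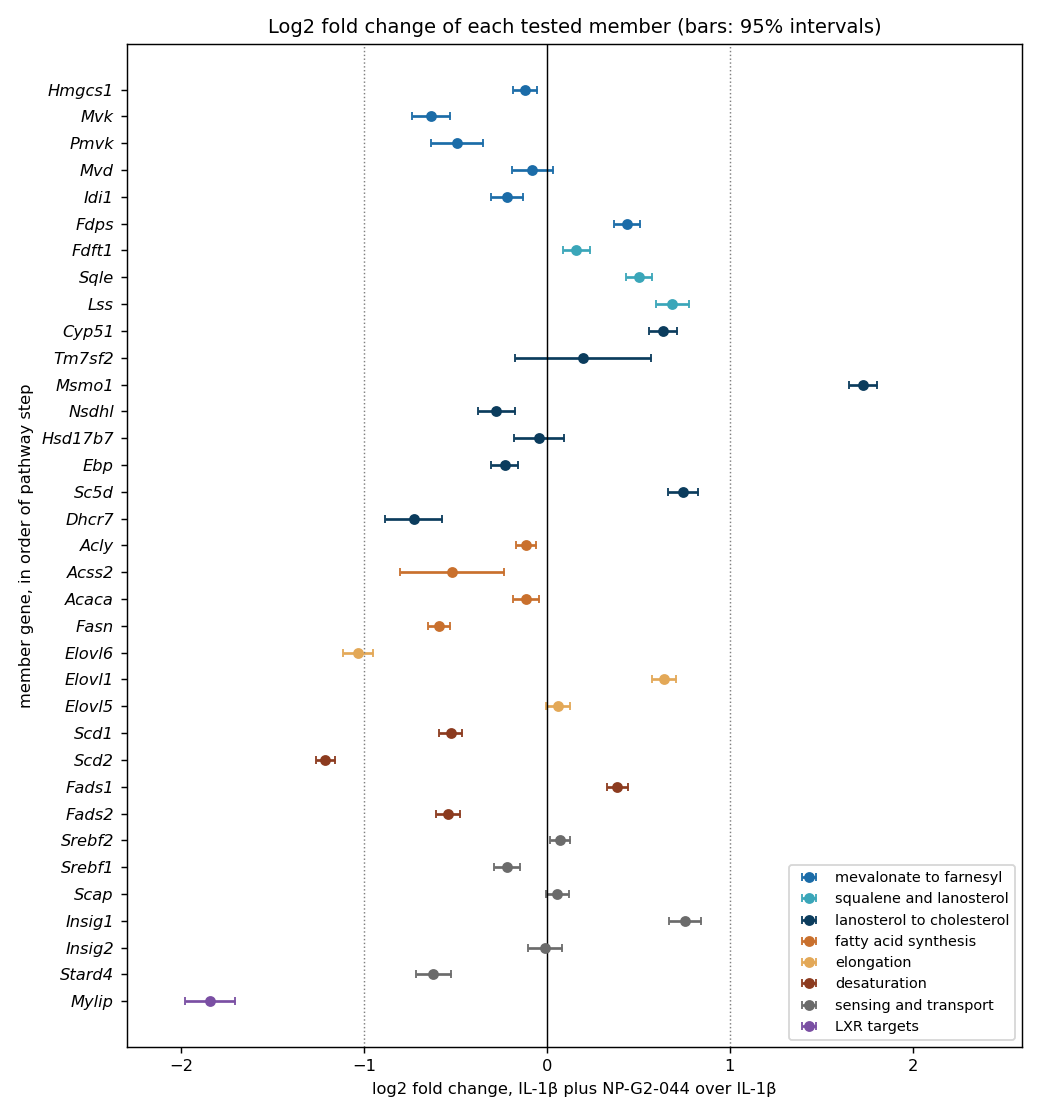
Log2 fold change of the 35 tested members (x axis, ILN over IL), listed in order of pathway step (y axis) and coloured by segment, with bars for the 95% interval. Msmo1, at 1.73, lies to the right of the dotted line at 1, and Elovl6, Scd2 and Mylip lie to the left of the line at -1.

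The promoters of the members most useful for reading these changes are given first. RefSeq promoters (GRCm38.p6, the assembly behind mm10) were found for 29 of the 37 members, 38 promoters in all, each from 250 bases before to 50 bases after a transcription start. The last 200 bases before the start are printed for the members past both cutoffs that had a promoter, for Mvk, a sterol enzyme that fell, and for Hmgcs1, which holds the sterol regulatory element, the class of site that SREBPs bind. Lower case is the promoter read 5′ to 3′ along the gene. Capitals mark CCAAT, bound by NF-Y, and GGGCGG, bound by Sp1, both known partners of SREBPs, and the sterol regulatory element TCACNCCAC, each on either strand, so that ATTGG and CCGCCC are the same motifs read on the other strand.
Msmo1, chr8:64733579-64733778, minus strand: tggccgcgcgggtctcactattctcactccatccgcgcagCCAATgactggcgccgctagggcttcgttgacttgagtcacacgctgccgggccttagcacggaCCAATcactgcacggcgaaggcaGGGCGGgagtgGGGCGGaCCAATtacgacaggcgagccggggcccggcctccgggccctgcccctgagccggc
Mvk, chr5:114444069-114444268, plus strand: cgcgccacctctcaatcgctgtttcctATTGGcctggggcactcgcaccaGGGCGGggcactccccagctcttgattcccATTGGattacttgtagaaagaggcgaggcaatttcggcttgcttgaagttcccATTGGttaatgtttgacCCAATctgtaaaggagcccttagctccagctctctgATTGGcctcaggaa
Hmgcs1, chr13:119690151-119690350, plus strand: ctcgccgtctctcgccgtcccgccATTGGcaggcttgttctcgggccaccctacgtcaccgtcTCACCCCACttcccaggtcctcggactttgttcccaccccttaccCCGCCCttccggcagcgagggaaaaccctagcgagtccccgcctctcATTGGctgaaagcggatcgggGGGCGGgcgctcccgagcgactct
Elovl6, chr3:129532186-129532385, plus strand: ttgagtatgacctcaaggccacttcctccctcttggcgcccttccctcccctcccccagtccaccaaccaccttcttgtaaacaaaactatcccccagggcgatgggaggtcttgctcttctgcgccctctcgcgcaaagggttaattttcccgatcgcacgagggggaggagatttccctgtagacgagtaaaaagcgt
Mylip, chr13:45389542-45389741, plus strand: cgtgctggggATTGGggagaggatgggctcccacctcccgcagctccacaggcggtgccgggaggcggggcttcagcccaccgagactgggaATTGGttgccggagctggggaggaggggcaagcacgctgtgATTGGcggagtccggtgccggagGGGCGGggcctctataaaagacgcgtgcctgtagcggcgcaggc

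Msmo1, the member that rose most, holds 3 CCAAT and 2 GGGCGG in these 200 bases, and Mvk, which fell, holds 5 CCAAT and 1 GGGCGG. Elovl6 holds none of the marked motifs in this window. Over the whole 300 bases, CCAAT was found in 14 of the 17 promoters of sterol enzymes (82.4%) and in 5 of the 9 promoters of fatty acid enzymes (55.6%), against 37.4% of the 32851 promoters in the table. Shares here are of promoters and not of genes. Fdps, Fdft1, Sqle, Scd1, Scd2 and Fads1 had no promoter, and some genes, such as Dhcr7, had several. GGGCGG had the same shares in the 2 enzyme groups, 82.4% and 55.6%, against 35.7% of all promoters. CACGTG, an E-box that SREBP1 can also bind, was in 21.1% of the member promoters and in 7.15% of all. A single site of Scap was counted in overlapping promoters. TCACNCCAC was in 1 member promoter, that of Hmgcs1 (2.63%, against 1.24% of all), and its inner letters CACCCCAC were found in the same promoter alone (2.63%, against 2.87% of all). The LXR response element DR4, in its consensus letters, was in no member promoter and in 0.0152% of all. These are matches of letters and were not compared with the direction of change.

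Sterol synthesis begins with the mevalonate steps. Of the 6 members that lead from acetyl units to farnesyl diphosphate, 4 fell and 1 rose. Mvk, mevalonate kinase, fell from 61.81 ± 1.516 TPM (SD, n = 3) to 39.08 ± 3.665 TPM, a log2 fold change of -0.63 ± 0.05 (SE; adjusted p = 1.46e-14). Pmvk, the next kinase, fell by 0.49 on the log2 scale and Idi1, which isomerizes the isoprene unit, fell by 0.22. Hmgcs1, which makes HMG-CoA, fell by 0.12 on that scale, and its normalized reads fell by 7.92%. Mvd, the decarboxylase between the kinases and Idi1, did not pass the test (log2 fold change of -0.08, adjusted p = 0.191). Fdps, farnesyl diphosphate synthase, went the other way, from 121.7 ± 3.45 to 161.7 ± 0.3317 TPM (log2 fold change of 0.44, adjusted p = 1.05e-15). Exons of Fdps and Idi1 have near-identical copies in 4 and 2 processed pseudogenes, none of them listed in the table, and reads from such copies would be hard to assign. Fdps also overlaps the protein-coding Gm43738 on the same strand over 1124 exon bases, 929 of them in a stretch at 100% identity, and Gm43738 is not listed in the table, so the level of Fdps is uncertain.

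The 3 enzymes that turn farnesyl diphosphate into lanosterol all rose. Sqle, squalene epoxidase and a known rate-limiting step, rose from 48.38 ± 1.062 to 67 ± 2.05 TPM, by 41.6% in normalized reads (log2 fold change of 0.50 ± 0.04, adjusted p = 6.62e-18). Lss, lanosterol synthase, rose by 60.9%, from 20.68 ± 2.567 to 32.6 ± 1.135 TPM (adjusted p = 1.81e-17). Fdft1, squalene synthase, rose by 11.7% (log2 fold change of 0.16, adjusted p = 0.000199). Its exons overlap those of Ctsb on the opposite strand over 774 bases, Ctsb itself rose from 387.4 to 689.6 TPM, and whether strand was used in counting is not known, so the rise of Fdft1 is uncertain.

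Msmo1 moved most among the member enzymes of either pathway. Msmo1 encodes methylsterol monooxygenase, which begins removal of the methyl groups next to the hydroxyl of the sterol ring. It was listed at 45.9, 51.32 and 52.45 TPM in the IL libraries and at 162.51, 164.75 and 158.36 TPM in the ILN libraries. The groups lay far apart, with the lowest ILN library above every IL library by more than the spread within either group. The rise was 3.31-fold (log2 fold change of 1.73 ± 0.04, adjusted p = 1.62e-40).

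The partners of Msmo1 in the same demethylation did not rise with it. Nsdhl, the dehydrogenase that follows, fell by 0.28 on the log2 scale, and Hsd17b7, the reductase that completes the cycle, did not pass the test (log2 fold change of -0.04, adjusted p = 0.568). Cyp51, which demethylates lanosterol just before, rose from 25.67 ± 0.4738 to 38.85 ± 1.515 TPM (log2 fold change of 0.63, adjusted p = 8.71e-21), and its exons overlap over 166 bases those of Akap9, which rose by 0.28 on the log2 scale. Tm7sf2, a sterol reductase at 2.38 to 3.55 TPM, did not pass (log2 fold change of 0.20 ± 0.19, adjusted p = 0.345), and its exons overlap those of Vps51 on the same strand over 532 bases.

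The last 3 steps were divided too. Ebp, the sterol isomerase, fell by 0.23 on the log2 scale. Sc5d, the desaturase that makes 7-dehydrocholesterol, rose from 37.72 ± 1.843 to 64.31 ± 4.767 TPM (log2 fold change of 0.74, adjusted p = 1.54e-21). Dhcr7, the reductase that turns that product into cholesterol, fell from 13.24 ± 0.9451 to 7.807 ± 0.2654 TPM (log2 fold change of -0.73, adjusted p = 9.54e-12). The substrate-making and substrate-using enzymes of the final reduction thus moved in opposite directions, by nearly the same size on the log2 scale.

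Counted together, 7 of the 17 sterol enzymes rose, 7 fell and 3 did not pass, against 40.2% higher and 39.8% lower among all genes tested. The sterol enzymes thus split much as all genes did. Their median log2 fold change was -0.04, against 0.00 for all genes tested, with a range from -0.73 to 1.73. The sign of this median turned, to 0.02, when IL replicate 1 was left out. The summed level of the 17 genes was 722.5, 753.5 and 752.4 TPM in the IL libraries and 886.6, 893.9 and 889.4 TPM in the ILN libraries, a ratio of 1.198. Fdps and Msmo1 carried that gain: without them the ratio was 0.992. By segment, the sums changed to 0.970 of the IL level for the mevalonate steps, 1.303 for squalene and lanosterol, and 1.468 for lanosterol to cholesterol. The last sum went from 265.2 to 389.3 TPM, and Msmo1 alone from 49.89 to 161.9 TPM. Of the 8 genes of that segment, 3 rose, 3 fell and 2 did not pass. In the mevalonate steps 4 of the 6 fell, and only Fdps rose, from 121.7 to 161.7 TPM.

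**Figure D2:**
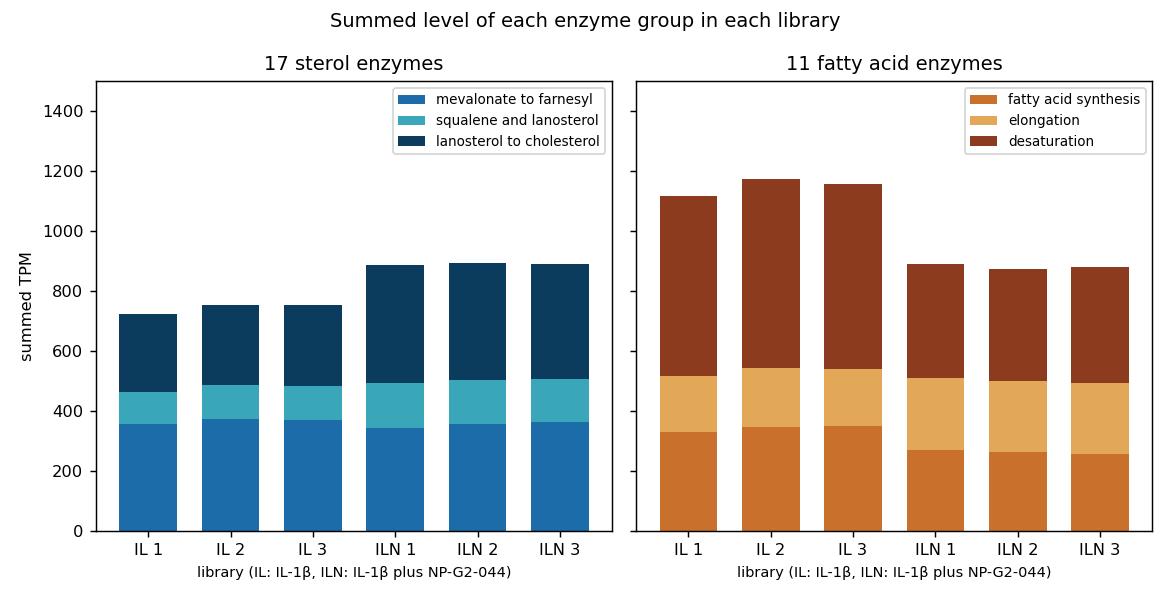
Summed TPM (y axis) of the 17 sterol enzymes (left) and the 11 fatty acid enzymes (right) in each library (x axis), stacked by pathway segment. The sterol bars stand at 722.5 to 753.5 TPM in the IL libraries and 886.6 to 893.9 TPM in the ILN libraries, and the fatty acid bars fall from at least 1118 TPM to at most 891.2 TPM, mostly in the desaturation segment.

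Fatty acid enzymes mostly fell. Of the 11, 8 fell, 2 rose and 1 did not pass, against 39.8% lower and 40.2% higher among all genes tested. Their median log2 fold change was -0.52 beside 0.00 for all genes tested. That median is the value of Acss2, a gene with 55 to 81 reads a library. It was smaller in size with a filter of 10 CPM in 3 libraries, which drops Acss2. The summed level of the 11 enzymes went from 1148.6 ± 28.32 to 881.5 ± 8.922 TPM, a ratio of 0.768. Scd2, the most abundant of them, held most of this loss, and the ratio without it was 0.917.

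All 4 enzymes that make palmitate and its precursors fell, by unequal amounts. Fasn, fatty acid synthase, fell from 174.3 ± 7.83 to 113.1 ± 5.971 TPM (log2 fold change of -0.59 ± 0.03, adjusted p = 1.07e-20). Acss2, which makes acetyl-CoA from acetate, had a log2 fold change of -0.52 ± 0.14 (adjusted p = 0.00111) on 55 to 81 reads a library, and its exons overlap those of Gss, which rose by 0.53 on the log2 scale. Acly, which makes acetyl-CoA from citrate, and Acaca, which makes malonyl-CoA, fell by 0.11 and 0.12 on that scale. The normalized reads of Acly fell by 7.62% and those of Acaca decreased by 7.78%. An Acaca pseudogene with a stretch of 6118 bases at 99.2% identity is not listed in the table. The 95% interval of the log2 fold change of Fasn, -0.651 to -0.534, lay wholly below those of Acly, -0.169 to -0.059, and Acaca, -0.187 to -0.047.

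The desaturases showed the largest fall and a rise. Scd2, a stearoyl-CoA desaturase that makes monounsaturated fatty acids and is the main form in many tissues outside the liver, was listed at 335.83, 354.71 and 348.55 TPM in the IL libraries and at 148.49, 143.83 and 145.45 TPM in the ILN libraries. No ILN library came near the IL range. The fall was 2.32-fold (log2 fold change of -1.21 ± 0.03, adjusted p = 1e-40). Scd1, its close relative, fell less, from 71.77 ± 2.824 to 48.65 ± 1.6 TPM (log2 fold change of -0.53, adjusted p = 3.67e-21). The ratio of Scd2 to Scd1 in TPM was 4.73 to 5.02 in the IL libraries and 2.96 to 3.06 in the ILN libraries. Scd1 and Scd2 share a stretch of 623 bases at 95.5% identity, so some reads may have been split between them.

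Fads1 and Fads2, the desaturases that act in turn on polyunsaturated fatty acids, lie close together on chromosome 19 (chr19:10182888-10196877 and chr19:10062765-10101746 in GENCODE vM21, mm10) and moved in opposite directions. Fads1 rose from 90.45 ± 2.652 to 115.4 ± 1.385 TPM (log2 fold change of 0.38, adjusted p = 7.23e-17). Fads2 fell from 106 ± 1.962 to 71.15 ± 4.123 TPM (log2 fold change of -0.54, adjusted p = 2.82e-19). Fads1 was thus the lower of the pair in all 3 IL libraries, at 0.818 to 0.880 of Fads2, and the higher in all 3 ILN libraries, at 1.535 to 1.683.

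Elongases split as well. Elovl6, which lengthens palmitate, was listed at 22.78, 24.89 and 24.55 TPM in the IL libraries and at 11.74, 11.36 and 11.35 TPM in the ILN libraries. The libraries of the groups did not overlap, and the fall was 2.05-fold (log2 fold change of -1.03 ± 0.04, adjusted p = 2.39e-28). That is close to the cutoff, and against a fold change of 2 as the null the adjusted p was 0.568. An Elovl6 pseudogene with 805 bases at 97.4% identity is not listed in the table. Elovl1, which lengthens very long chains, rose from 95.49 ± 1.483 to 151.6 ± 1.455 TPM (log2 fold change of 0.64, adjusted p = 3.37e-24). Elovl5, which lengthens polyunsaturated chains, had 71.15 to 74.7 TPM in the IL libraries and 72.66 to 76.23 TPM in the ILN libraries and did not pass (adjusted p = 0.107). Its 95% interval for the log2 fold change ran from -0.008 to 0.124. Elovl1 exons overlap those of Cdc20 on the opposite strand over 53 bases, and Cdc20 fell by 1.66 on the log2 scale while Elovl1 rose.

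**Figure D3:**
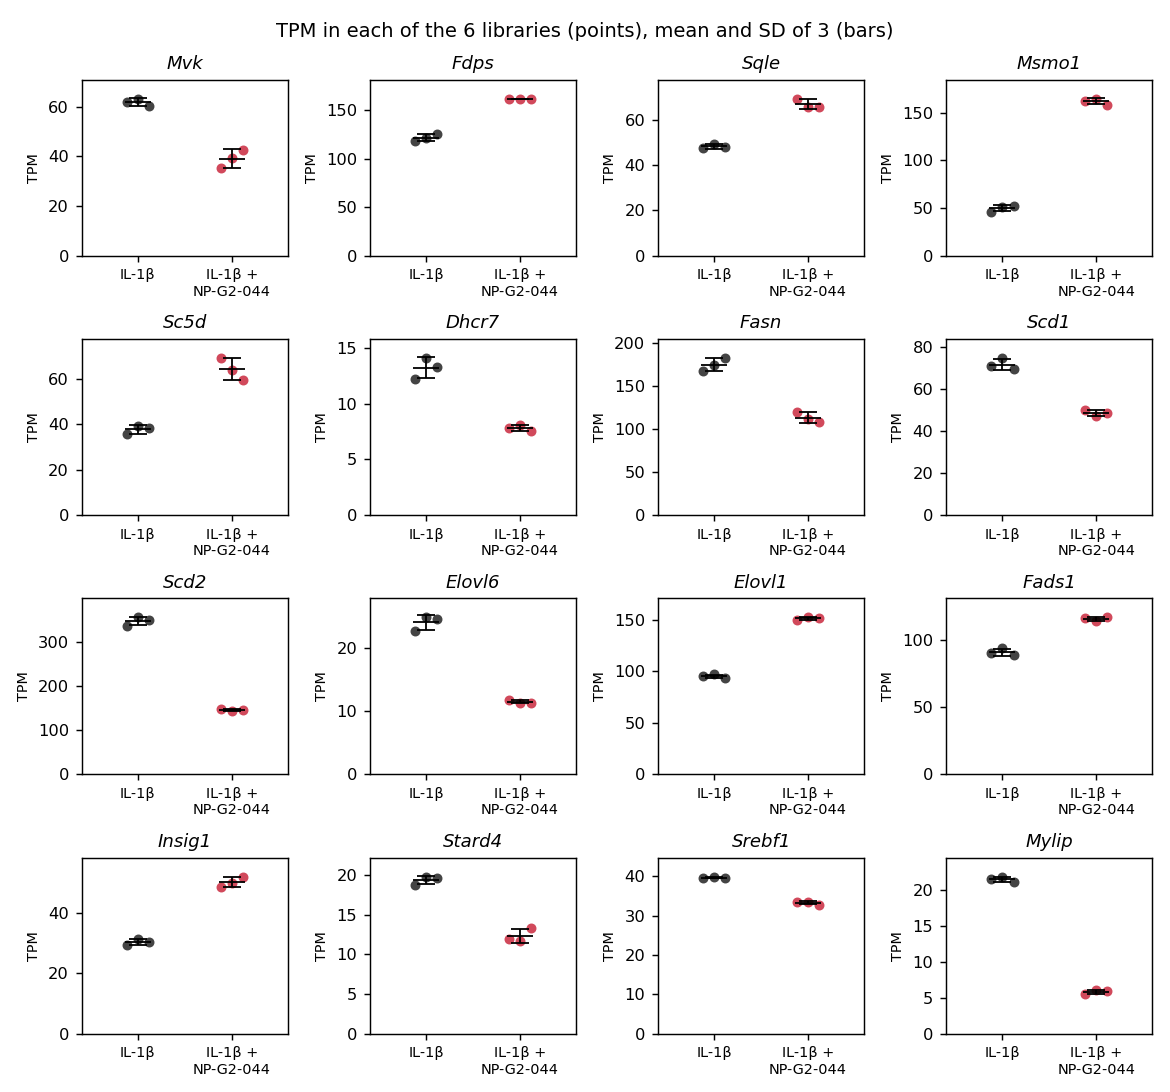
TPM (y axis, from 0) of 16 members in each library, with IL-1β in grey and IL-1β plus NP-G2-044 in red. Horizontal bars are the mean and vertical bars the SD of 3 libraries. The groups do not overlap in any panel shown, as in 79.4% of all tested genes. Tm7sf2, Elovl5, Srebf2, Scap and Insig2, whose groups overlap, are not shown. Msmo1, from at most 52.45 to at least 158.36 TPM, and Mylip, from at least 21.17 to at most 6.11 TPM, are the furthest apart in ratio.

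The transcripts of the SREBPs themselves changed little. Srebf2 was listed at 103.99, 110.23 and 111.92 TPM in the IL libraries and at 113.57, 113.28 and 110.02 TPM in the ILN libraries, and the groups overlap. Its log2 fold change of 0.07 had an adjusted p of 0.0229, which did not hold in DESeq2 (0.0682), in limma on log2(TPM + 1) or on log2(TPM + 0.1) (0.229 in each), with a higher filter on low counts (0.155), without IL replicate 1 (0.151) or without ILN replicate 2 (0.082). Srebf1 was listed at 39.65, 39.91 and 39.48 TPM in the IL libraries and at 33.44, 33.48 and 32.78 TPM in the ILN libraries. Its groups were apart, with a log2 fold change of -0.22 ± 0.04 (adjusted p = 2.23e-07). The ratio of Srebf2 to Srebf1 in TPM rose from 2.62 to 2.84 in the IL libraries to 3.36 to 3.40 in the ILN libraries. These are gene totals, in which the Srebf1 isoforms cannot be told apart, and Srebf1 exons overlap those of Rai1, which rose by 0.46 on the log2 scale, on the opposite strand over 109 bases.

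Of the proteins that hold SREBPs in place, the transcript of Insig1 rose and those of Scap and Insig2 did not pass. Insig1, itself a classic SREBP target, was listed at 29.47, 31.46 and 30.37 TPM in the IL libraries and at 48.58, 49.95 and 52.0 TPM in the ILN libraries. All ILN libraries lay above all IL libraries, by 68.6% in normalized reads (log2 fold change of 0.75 ± 0.04, adjusted p = 4.32e-22). Insig2, which does the same work but is less dependent on SREBPs, was listed at 29.58, 29.86 and 31.2 TPM in the IL libraries and at 31.01, 29.97 and 28.26 TPM in the ILN libraries. The libraries are mixed (adjusted p = 0.807, with a 95% interval of the log2 fold change from -0.106 to 0.079). Insig1 and Insig2 stood at equal levels with IL-1β, at a ratio of 0.973 to 1.054, and at 1.567 to 1.84 with the inhibitor.

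Scap, the SREBP escort that senses cholesterol, was listed at 64.97, 68.8 and 66.52 TPM in the IL libraries and at 66.57, 70.47 and 66.25 TPM in the ILN libraries, which overlap. It did not pass (log2 fold change of 0.06, adjusted p = 0.103), and passed only without ILN replicate 1 (adjusted p = 0.0447). Stard4, a carrier of free sterol between membranes, fell from 19.36 ± 0.5424 to 12.29 ± 0.8545 TPM (log2 fold change of -0.62, adjusted p = 3.64e-17). Insig1 and Stard4, both known to respond to SREBP2, therefore changed in opposite directions.

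The ratios within the 5 related pairs, Scd2 to Scd1, Fads1 to Fads2, Insig1 to Insig2, Srebf2 to Srebf1 and Elovl5 to Elovl6, each separated the groups without overlap. Such separation was common, at 79.4% of all single genes tested, and ratios of other gene pairs were not computed. Elovl5 to Elovl6 went from 3.03 ± 0.09 to 6.46 ± 0.05 (SD, n = 3; TPM). The two-sided exact permutation test gave p = 0.1 for each pair, and 0.1 after Benjamini-Hochberg adjustment over the 5, which is the smallest p that 3 libraries against 3 allow.

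Among the members that are LXR targets, Mylip fell, and Abca1 and Abcg1 were near the limit of detection. Mylip, an E3 ligase that LXRs raise to degrade lipoprotein receptors, was listed at 21.5, 21.87 and 21.17 TPM in the IL libraries and at 5.59, 6.11 and 5.88 TPM in the ILN libraries. It was the member that fell most, 3.59-fold, with no overlap (log2 fold change of -1.84 ± 0.07, adjusted p = 5.48e-30). Abca1, the exporter of cholesterol to lipid-poor particles, had 6, 6 and 8 reads in the IL libraries and 0 in each ILN library. Pooled over a group and set against a floor of 3 reads, this is at least 7.02-fold lower. Abcg1, a second exporter, had 2, 3 and 2 reads against 0 in each, at least 2.46-fold lower on the same basis. Both exporters were barely expressed under either condition. The pooled IL reads, 20 for Abca1 and 7 for Abcg1, were taken as exact, so these bounds cover counting error in the ILN libraries only.

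Of 8 other LXR-related genes tested, receptors and targets together, 3 rose, 4 fell and 1 did not pass, with a median log2 fold change of 0.04. Among all genes tested, 40.2% rose and 39.8% fell. Of the 4 receptor genes, Nr1h2 and Rxrb rose by 0.35 and 0.23 on the log2 scale, Rxra fell by 0.62 and Nr1h3 did not pass (adjusted p = 0.426). Of the 4 targets, 3 fell as Mylip did. Lpcat3, which remodels phospholipids, fell by 0.74 and Arl4c by 0.16 on the log2 scale. Smpdl3a fell by 0.80 on that scale, on 13 to 35 reads a library. Pltp, a phospholipid transfer protein and LXR target, rose from 13.62 ± 1.345 to 30.21 ± 1.582 TPM (log2 fold change of 1.18, adjusted p = 6.64e-21).

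Genes that process and retain SREBPs were also divided. Of 7 tested, 3 rose and 4 fell, with a median of -0.09, against 40.2% higher and 39.8% lower among all genes tested. Erlin1, an endoplasmic reticulum protein that binds cholesterol and restrains SREBP release, rose from 66.43 ± 3.881 to 139.7 ± 5.286 TPM (log2 fold change of 1.11, adjusted p = 6.49e-33). Rnf145, an E3 ligase that acts on SCAP, fell from 58.46 ± 2.602 to 24.11 ± 0.3398 TPM (log2 fold change of -1.25, adjusted p = 6.42e-34).

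Genes of cholesterol uptake, trafficking and esterification moved both ways. Of 13 tested of 16 genes, 6 rose, 6 fell and 1 did not pass, against 40.2% higher and 39.8% lower among all genes tested. Past both cutoffs, 3 rose and 1 fell, against 6.48% higher and 10.1% lower among all genes. Vldlr, a lipoprotein receptor, rose 3.89-fold, from 8.037 ± 0.4244 to 30.58 ± 0.7113 TPM (log2 fold change of 1.96, adjusted p = 1.32e-42). Soat1, which makes cholesterol esters, rose from 38.11 ± 1.87 to 80.04 ± 2.95 TPM (log2 fold change of 1.10), and Nceh1, which splits them outside lysosomes, rose from 9.5 ± 0.8996 to 24.99 ± 0.6509 TPM (1.43). Lipa, which splits them inside lysosomes, fell from 87.54 ± 0.9222 to 36.35 ± 1.442 TPM (-1.24).

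Around fatty acid synthesis, the carbon supply and malonyl-CoA genes had 3 higher, 2 lower and 2 not passing of 7 tested. Among all genes tested, 40.2% were higher and 39.8% lower. Mid1ip1, which activates acetyl-CoA carboxylase, rose from 30.14 ± 0.8702 to 66.51 ± 3.383 TPM (log2 fold change of 1.17, adjusted p = 5.52e-29), while Acaca itself fell by 0.12 on the log2 scale. Of 12 tested genes of acyl-CoA activation and the elongation cycle, 5 rose and 5 fell, against the same shares of all genes. Fads3, the third gene of the Fads family, rose 4.74-fold, from 36.63 ± 2.051 to 169.6 ± 0.5771 TPM (log2 fold change of 2.24, adjusted p = 1.41e-48). Elovl4 and Elovl7, elongases that are not members, rose by 1.17 and 1.07 on the log2 scale, the latter to no more than 1.51 TPM. Acsl5, an acyl-CoA synthetase, fell from 118 ± 4.809 to 51.21 ± 0.892 TPM (log2 fold change of -1.16).

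**Figure D4:**
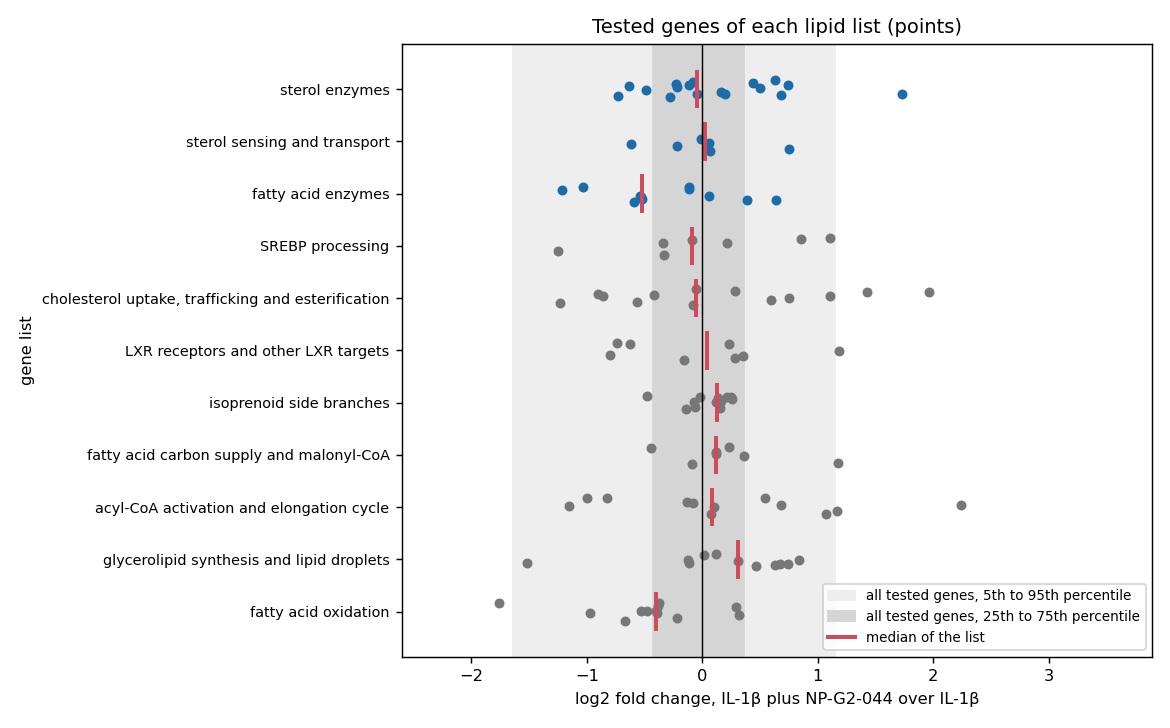
Log2 fold change (x axis, ILN over IL) of each tested gene in the member groups (blue) and in the other lipid lists (grey), with the list median in red and the middle of all 11983 tested genes shaded (25th to 75th percentile, -0.425 to 0.364; 5th to 95th, -1.640 to 1.152). The fatty acid enzymes have the lowest median, -0.52, and the sterol enzymes are spread on both sides of 0. That lowest median is the value of Acss2, a gene with 55 to 81 reads a library, and fatty acid oxidation follows at -0.40. With a filter of 10 CPM in 3 libraries, which drops Acss2, the fatty acid enzyme median was smaller in size. Its lowest rank may therefore not hold without that gene. LXR targets among the members are left out because only Mylip was tested.

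Marker genes of other cell types moved alongside these results. Adipocyte markers (6 genes) summed to 5.43 to 8.25 TPM in the IL libraries and 1.21 to 1.61 TPM in the ILN libraries, and 2 of the 3 tested, Fabp4 and Pparg, fell. Both passed the filter on low counts through the IL libraries alone, so a fall was the only likely call. Fabp4 had 12 to 22 reads in each IL library and Pparg 29 to 49, against 1 to 3 in each ILN library. Pparg, the nuclear receptor that drives fat cell genes, averaged 2.45 ± 0.6251 TPM in the IL libraries and 0.1167 ± 0.05508 TPM in the ILN libraries. Macrophage markers (5 listed of 6) summed to 23.83 to 24.63 and 128.6 to 140 TPM, of which Cd68 made up 12.36 ± 1.679 and 129.9 ± 5.481 TPM, with Ptprc at 0 in every library. Cd14, the other macrophage marker tested, went the opposite way (log2 fold change of -1.19, adjusted p = 3.52e-13). Fibroblast markers (7 genes) summed to 1106 to 1151 and 337 to 350.9 TPM, of which Col1a2 made up 1098 ± 26.96 and 330.8 ± 6.797 TPM. Thy1 was at 0, and 4 of the 5 tested fell while Pdgfra rose by 1.91 on the log2 scale. The 8 listed chondrocyte markers of 13 summed to 11.5 to 12.24 and 14.86 to 15.05 TPM. Of the 3 tested, Sox9 rose by 0.85 on the log2 scale, and Col2a1 fell by 2.41 and Col11a2 fell by 0.56. Col2a1 too passed the filter through the IL libraries alone, at 10 to 12 reads a library against 1 to 3 in the ILN libraries. Among all genes tested, 40.2% rose and 39.8% fell. Endothelial and epithelial markers summed to at most 0.55 and 1.25 TPM. The part of these shifts in the lipid genes was not tested.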

How the data were processed

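RNA was sequenced from 3 IL and 3 ILN libraries of ATDC5 cells, prepared with a TruSeq RNA kit, and BGI did the sequencing and quantification. The submitters' processing notes name mm10, cutadapt, HISAT2 2.0 and StringTie; the sources used here do not give the annotation or the strand setting. The authors deposited an expected count per gene and library, of which 10.17% to 11.06% were not whole, with TPM and FPKM. The deposited TPM, scaled per library by the authors, served for levels. No use was made of the deposited FPKM or of the group means of the authors.

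Counts were rounded, filtered with filterByExpr (minimum count of 10), TMM-normalized and compared with edgeR 4.0.16 (glmQLFit with robust estimation, R 4.3.3) over 11983 genes with Benjamini-Hochberg adjustment. Genes were called at an adjusted p below 0.05, with or without a log2 fold change above 1 in size. Squared differences between libraries of the same group averaged 1.538 to 2.392 times those of sampling noise. The common biological coefficient of variation was 2.33%, and the p-values are set against that small spread. In simulated counts, 99% of 195 changed genes among 11880 were recovered, with 13 false calls. Those genes were changed by a fold of at least 2, in both directions. In the real comparison 80% of tested genes were called, and the median log2 fold change was 0.39 in size. The simulation therefore does not cover small changes, or a comparison in which most genes are called.

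The members and the lipid and marker lists were chosen with earlier results of these data known. Every member was named, with TPM per library for those past both cutoffs and for the SREBP regulators. From each lipid list, up to 4 genes past both cutoffs were named. The result of 1 gene of the fatty acid oxidation list is not reported here. Genes such as Ctsb, Gss, Rai1, Vps51 and Cdc20 were added for exon overlap in GENCODE vM21, and Pparg, Col2a1, the other markers and the other LXR genes after their values were seen. Near-identical copies were stretches of at least 300 bases at 95% identity or more. Protein sequences were not used here. Alternatives were DESeq2 1.42.0 and its size factors, library size alone, limma 3.58.1 on log2(TPM + 1) and log2(TPM + 0.1), no filter, a filter of 10 CPM in 3 libraries, a fold change of 2 as the null, a replicate block, and each library left out in turn.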

Additional observations from a re-analysis of the deposited data

How the results depend on the processing

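Over 523 pairs of a tested member and an alternative, 488 stayed on the same side of the threshold, 32 dropped out of the call and 3 came into it. No direction turned where either fit passed. Directions did turn for members that did not pass: the log2 fold change of Hsd17b7 ran from -0.1018 to 0.0208, and that of Insig2 from -0.0403 to 0.0139. Of the 32, 26 arose with a fold change of 2 as the null, which left 1 member higher and 2 lower (sterol enzymes 1 and 0, fatty acid enzymes 0 and 1, all genes 564 and 909), and the other 6 were Srebf2. The gains were Mvd in both limma fits and Scap without ILN replicate 1. With a filter of 10 CPM, all genes past both cutoffs numbered 484 higher and 680 lower, and in limma on log2(TPM + 1) 514 and 802. With no filter, 5 members fell past both cutoffs, Abca1 and Abcg1 being added. The median log2 fold change of the sterol enzymes was -0.0894 with the 10 CPM filter, which drops Tm7sf2, -0.0913 and -0.1018 in limma on log2(TPM + 1) and log2(TPM + 0.1), and -0.0996 without Fdft1, Fdps and Tm7sf2, an alternative chosen after seeing the data. That of the fatty acid enzymes was -0.35 with the 10 CPM filter, which drops Acss2, and -0.39 in limma on log2(TPM + 1). With each library left out in turn, these medians ran from -0.0772 (without IL replicate 3) to 0.0208 (without IL replicate 1) and from -0.53 to -0.48, and 5 to 8 genes of the other lipid lists fell past both cutoffs. In CPM, which favors long genes, the ratios of summed levels were 1.225 for sterol and 0.695 for fatty acid enzymes; without Fdps and Msmo1 (0.992) and without Scd2 (0.917) were added after seeing the data. Where not stated, the cause was not tested.

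Replicate numbers are shared by the groups. Correlations of deviations between libraries of the same number were -0.093, -0.024 and 0.026, so the numbers do not pair the libraries. With the replicate block, 775 genes rose and 1209 fell past both cutoffs, and 11 members rose and 18 fell at the adjusted p alone. Abca1 and Abcg1 are limited by depth, with at most 8 reads a library.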

Other observations

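Among enzymes of fatty acid oxidation, 10 fell at an adjusted p below 0.05, where 39.8% of all genes tested fell. Acadm, the medium-chain acyl-CoA dehydrogenase of mitochondria, fell from 62.55 ± 2.135 to 18.05 ± 0.7087 TPM (SD, n = 3; log2 fold change of -1.76, edgeR adjusted p = 4.65e-35). Acadl, a long-chain dehydrogenase named after its values were seen, rose by 0.32 on the log2 scale.

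Of 11 tested genes of glycerolipid synthesis and lipid droplets, 6 rose, 3 fell and 2 did not pass, with a median log2 fold change of 0.31. The 81.8% that passed is near the 80% of all genes tested, of which 40.2% rose and 39.8% fell, and the lists were not tested against each other. Lpin1, which makes diacylglycerol, fell from 6.05 ± 0.23 to 2.12 ± 0.2007 TPM (log2 fold change of -1.51, edgeR adjusted p = 4.83e-21) and was the only gene of this list past both cutoffs. Side branches of the isoprenoid pathway, among them protein prenylation and the making of ubiquinone and dolichol, had small changes: 6 of 12 rose, 1 fell, 5 did not pass, and no gene had a log2 fold change above 0.48 in size.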
